A study of Rattus norvegicus and Ovis aries with 113 samples.

Results

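Several enzymes of glucose use have a further gene copy that male germ cells use in place of the somatic one. The 9 genes described here were chosen by symbol from a list: the germ-cell isoforms GAPDHS, PGK2, LDHC and PDHA2, and their somatic partners GAPDH, PGK1, LDHA, LDHB and PDHA1. All 9 were among the 38675 genes of the rat count table and 8 were among the 31304 genes of the sheep table, where the symbol LDHC was not found and is not analysed here.

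Glycolysis splits glucose into pyruvate, and the later steps yield ATP. GAPDH oxidises glyceraldehyde 3-phosphate, and GAPDHS is its sperm form, bound to the fibrous sheath of the tail. PGK1 makes ATP from the product of that step and lies on the X chromosome, which is silenced during male meiosis, and PGK2 is an autosomal, intronless copy used by male germ cells. PDHA1, also X-linked, is the E1 alpha subunit of the pyruvate dehydrogenase complex that feeds pyruvate into mitochondria, and PDHA2 is its autosomal, intronless testis copy. Lactate dehydrogenase interconverts pyruvate and lactate. Its subunits are LDHA (the muscle form), LDHB (the heart form) and LDHC, the form of testis and sperm, needed for normal sperm motility.

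The samples were bulk RNA libraries from 5 post-pubertal male sheep (10 dissected brain regions and sperm each), 15 post-pubertal male Sprague Dawley rats (whole brain, and sperm from seminal fluid) and 14 female Sprague Dawley rats (whole brain and ovary), 113 libraries in all. No animal carried a transgene or received a treatment, per the labels, and samples with the same number came from the same animal. Sheep and rat libraries were made with different extraction and library kits, so species and kit cannot be told apart. Each group was RNA from many cells together, so fewer cells of a type and less RNA per cell cannot be told apart in any value below.

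Total counts per library, in units of 1000000, were 46.7 to 72.4 in sheep brain, 13.7 to 65.1 in sheep sperm, 38.2 to 119.2 in rat brain, 13.7 to 65.1 in rat sperm and 50.5 to 60.3 in ovary. The libraries labelled sperm held germ-cell RNA in very unequal amounts. Summed over 12 spermatid genes such as PRM1, TNP1 and ODF1, the level ran from 311 to 25193 CPM (counts per 1000000 of a library, scaled by the trimmed mean of M values, TMM) in rat sperm against 9.00 to 13.0 in male brain. In sheep sperm it ran from 251 to 8011 CPM, and in sheep brain from 8.19 to 30.8. At least 9 of the 12 genes were above 0 in every rat sperm library, with SPACA1 and ACRV1 each at 0 in 5 libraries and TNP1 in 1, and at least 11 in every sheep one. A list of 7 neutrophil genes summed to between 13838 and 158857 CPM in sheep sperm, against at most 6.26 in sheep brain, and a list of squamous epithelial genes to between 8922 and 158610. The library of sheep 688 was highest in both lists and lowest in the spermatid list. In rat sperm the neutrophil list stayed between 4.06 and 58.5 CPM, and blood genes between 531 and 20410. Rat sperm libraries 16 and 17 also stood apart, with 441 and 436 genes at 1 to 9 counts against 1394 to 8389 in the others, so a gene listed at 0 there has less weight. Among rat brains, male 4 and female 1 had TMM factors of 0.141 and 0.0785, against 0.510 to 1.36 in the others. Before scaling, PDHA1 stood at 21.6 and 11.3 CPM in these libraries, against 99.7 to 245 in the other rat brains. Values from plain library totals include both libraries. Brain libraries carried their own markers, with an 8-gene neuron list at 5327 to 6622 CPM in male rat brain and 1.17 to 18.0 in rat sperm. In sheep sperm 7 of those genes summed to 3.48 to 118 CPM, highest in sheep 699 and 687 (102), against 499 to 5369 in sheep brain.

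Promoter sequences are shown to let the germ-cell copies be set beside a somatic one. These are the 250 bases before the annotated start of the 4 rat germ-cell isoforms and of Ldha, 5′ to 3′ on the gene's own strand in GRCr8 (RefSeq). Ldha is included as the somatic neighbour of Ldhc. Capitals mark CG dinucleotides.
Gapdhs, chr1:95121056-95121305, minus strand: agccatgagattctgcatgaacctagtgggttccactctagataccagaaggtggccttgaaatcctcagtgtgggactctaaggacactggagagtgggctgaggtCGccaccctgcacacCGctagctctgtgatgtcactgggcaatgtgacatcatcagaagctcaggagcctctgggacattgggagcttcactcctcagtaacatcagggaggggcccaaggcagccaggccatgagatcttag
Pgk2, chr9:27976663-27976912, plus strand: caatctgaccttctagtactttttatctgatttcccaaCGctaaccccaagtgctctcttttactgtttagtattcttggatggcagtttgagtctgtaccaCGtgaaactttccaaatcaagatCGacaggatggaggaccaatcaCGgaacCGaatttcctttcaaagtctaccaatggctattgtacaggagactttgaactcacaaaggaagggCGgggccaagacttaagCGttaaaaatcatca
Ldhc, chr1:106522745-106522994, plus strand: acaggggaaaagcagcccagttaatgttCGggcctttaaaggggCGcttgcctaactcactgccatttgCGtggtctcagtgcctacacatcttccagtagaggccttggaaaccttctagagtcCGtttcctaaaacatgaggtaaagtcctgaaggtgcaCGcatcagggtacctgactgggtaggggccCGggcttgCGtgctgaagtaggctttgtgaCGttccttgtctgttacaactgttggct
Pdha2, chr2:232547099-232547348, minus strand: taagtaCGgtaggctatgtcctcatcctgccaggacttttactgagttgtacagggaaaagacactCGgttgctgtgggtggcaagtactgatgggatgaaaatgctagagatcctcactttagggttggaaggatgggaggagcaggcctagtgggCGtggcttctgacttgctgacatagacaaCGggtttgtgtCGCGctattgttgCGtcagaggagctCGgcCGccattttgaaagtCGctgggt
Ldha, chr1:106507842-106508091, plus strand: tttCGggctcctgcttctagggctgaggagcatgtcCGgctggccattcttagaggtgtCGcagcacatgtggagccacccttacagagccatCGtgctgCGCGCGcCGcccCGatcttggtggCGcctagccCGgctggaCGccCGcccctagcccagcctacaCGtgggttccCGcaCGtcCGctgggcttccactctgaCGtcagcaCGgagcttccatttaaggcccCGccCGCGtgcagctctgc

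Over all 33469 rat windows of this length the median was 5 CG dinucleotides, with quartiles of 2 and 15. Gapdhs held 2, Pgk2 7, Ldhc 8 and Pdha2 10, all below the upper quartile. Of the somatic partners, Ldha held 22, Pdha1 19, Gapdh 17 and Ldhb 10. A total of 8 of the 9 genes matched a window; Pgk1 was not in the table used. The full cyclic AMP response element TGACGTCA, a palindrome, lay 51 bases before the start of Ldha, and 1.59% of all windows held it. Its shorter core TGACG, searched on both strands and also contained in the full element, began 31 bases before the start of Ldhc and 40 before that of Pdha2, and also lay in the windows of Ldha, Gapdh and Pdha1; 18.2% of all windows held it. The GC box GGGCGG, searched on both strands, was found 35 bases before the start of Pgk2, in Ldha and Pdha1, and in 30.5% of all windows. Gapdhs held none of these motifs, and neither did the somatic Ldhb. The matches describe letters only.

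The genes' positions bear on what was counted. Ldha (chromosome 1, 106508092 to 106517512) and Ldhc (106522140 to 106539649) are neighbours. Gapdhs (chromosome 1, 95106516 to 95125918) overlaps Sbsn, and the windows shown for Gapdhs and Ldhc lie inside the genes' outermost bounds, since the listed transcript starts there. Ldhc overlaps the long noncoding RNA LOC120099812. Pgk2 (chromosome 9, 27976913 to 27978479) and Pdha2 (chromosome 2, 232545550 to 232547098) are short, and Pdha2 lies within the long noncoding RNA LOC103691720. Pgk1 and Pdha1 are on chromosome X, from 75336988 to 75352962 and from 38509158 to 38522986, and Gapdh and Ldhb are on chromosome 4, from 159648592 to 159653436 and from 177159389 to 177177408. How the counting treated strand and reads with several matches is not stated by the sources used, so overlapping genes and near-identical copies are uncertain. Sbsn itself stood at 7.87 CPM in male rat brain and 6.40 in sperm. LOC120099812 had 27 counts in male brain and 2010 in sperm, and LOC103691720 had 2 and 629. The part of this overlap in the Ldhc and Pdha2 counts was not tested. The 10 Gapdh-named copies of the rat table summed to 0.0927% of the Gapdh count in male brain and to 0.502% on average, at most 5.33%, in sperm, and 1 Ldha-named copy to 11.6% in male brain and 12.0% in sperm.

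**Figure D1:**
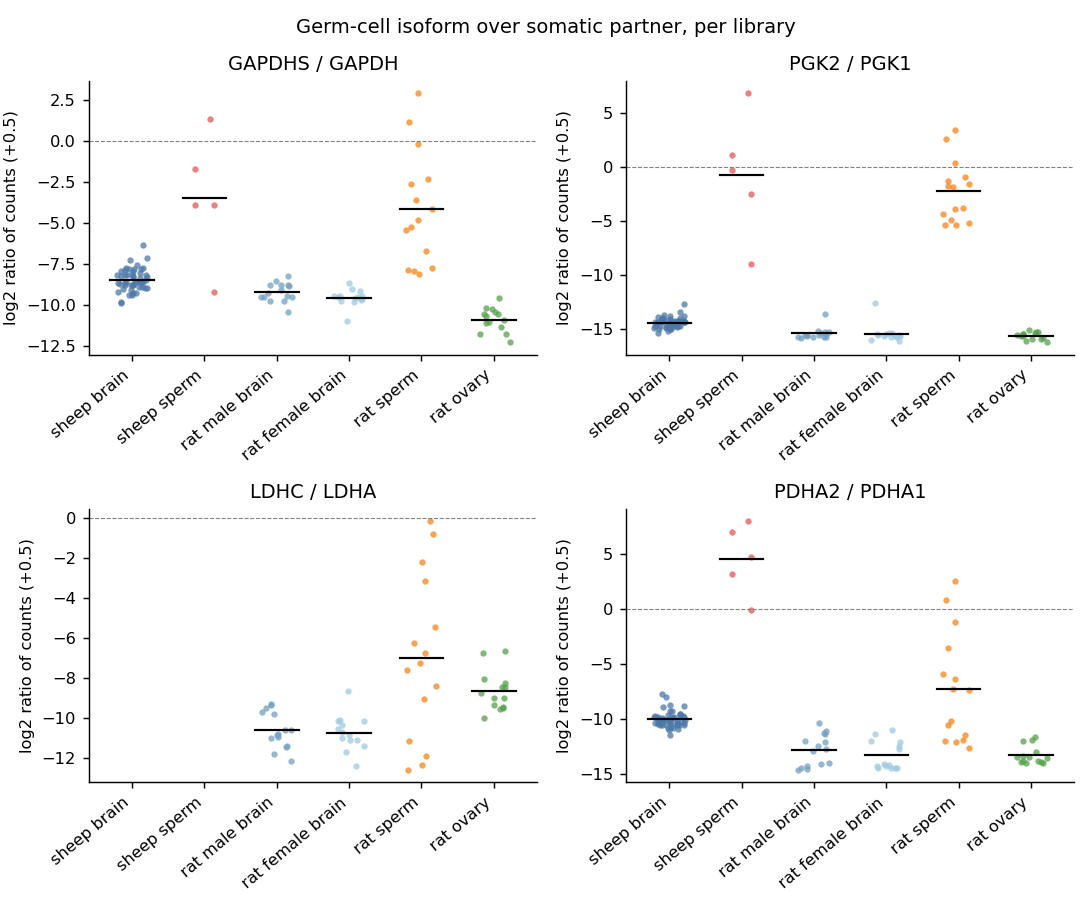
Log2 ratio of the counts of each germ-cell isoform to its somatic partner (0.5 added to both) in every library, by tissue; each point is 1 library, the black line is the group mean and the dashed line marks equal counts. Sperm means lie above brain means in every panel with both, individual sperm libraries spread over most of the axis, and LDHC has no sheep values.

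At the glyceraldehyde 3-phosphate step, sperm held more of the germ-cell form than brain in both species, and the libraries differed widely. In rat sperm GAPDHS ran from 2.97 CPM (rat 5) over a median of 30.1 to 1319 (rat 14), against 1.60 to 5.70 in male brain (mean 3.35 ± 1.02, SD, n = 15). A total of 11 of the 15 sperm libraries lay above every male brain, and 4 lay within the brain range. GAPDHS rose in rat sperm by a log2 fold change of 6.06 ± 0.84 (SE; p = 1.32e-07 after Benjamini-Hochberg adjustment, by edgeR's quasi-likelihood test), and by 5.20 without rat 14. GAPDH fell by 1.14 ± 0.20 (adjusted p = 6.83e-06) from 1925 ± 201 CPM in brain to 842 ± 368 in sperm. No rat sperm library reached the lowest male brain in GAPDH.

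In sheep sperm GAPDHS stood highest in sheep 699 (103.2 CPM) and 687 (76.8), then in 690 (32.6), 694 (12.4) and 688 (2.02), against 1.38 to 6.96 in the 50 brain libraries. Only sheep 688 lay within the brain range on this scale, which rests on TMM factors of 0.114 to 0.305 in sheep sperm. Before scaling, GAPDHS was 19.4, 8.78, 7.23, 3.79 and 0.508 CPM in the same order, against 1.44 to 8.50 in brain. Sheep 690 and 694 then lay within the brain range and 688 below it. The log2 fold change over brain was 4.06 ± 0.21 (edgeR quasi-likelihood test, adjusted p = 2.66e-23), 3.54 without sheep 699 and 1.31 with plain library totals. That SE pools the spread with the 50 brain libraries and is narrower than the spread of the 5 sperm libraries, and an exact permutation test of the levels per animal, added after seeing the data, gave a difference of 3.06 with an adjusted p of 0.0519. GAPDH was 347, 30.5, 498, 192 and 1204 CPM in the same order of sheep, against 506 to 1443 in brain. Its fold change of -1.08 ± 0.30 (adjusted p = 0.00117) passed the threshold, but the call was lost with RLE factors (-0.92), upper-quartile factors (-0.47), DESeq2 (-0.92), per-animal permutation and summed regions (-1.18, adjusted p = 0.152), and without sheep 687 (-0.75) or 694 (-0.88); without sheep 688 it was -1.76.

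Because sperm and brain libraries scale so differently, the counts of a pair were also compared within each library, a ratio that no scaling changes. Shares below are of counts, with no correction for gene length. GAPDHS made up 0.366 to 88.0% of GAPDHS plus GAPDH counts in rat sperm (median 3.42%) and 0.179 ± 0.0695% in male brain. It exceeded 50% in 2 of the 15 sperm libraries (rats 14 and 7) and stayed under 5% in 8. The mean log2 ratio was 5.03 higher in sperm, the groups did not overlap, and a two-sided permutation test gave p = 2e-05, the smallest that 100000 resamples can give (adjusted over the 14 ratio tests, 3.5e-05). Among the sheep, GAPDHS took 71.6% of the sperm counts of 687 and 22.9% of those of 699, then 6.14% (690), 6.09% (694) and 0.168% (688), against 0.318 ± 0.181% in brain. Here the log2 ratio was 4.96 higher (exact permutation test, n = 5 and 5, p = 0.0476, adjusted 0.0476), 3.75 without sheep 687 and 6.38 without 688. Paired within animals, the exact sign-flip test gave an adjusted p of 0.12, and 5 pairs cannot go below 0.0625.

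At the phosphoglycerate kinase step, PGK2 was counted in sperm and not in rat brain or ovary. All 15 male brain, 14 female brain and 14 ovary libraries had 0 counts of PGK2, while the 15 sperm libraries held 87250 in total. Sperm PGK2 ranged from 5.39 CPM (rat 6) over a median of 42.9 to 509.8 (rat 14), with rat 7 at 507.6. With 3 counts over all male brain libraries as the floor, the mean sperm level of PGK2 (117 CPM before scaling) was at least 30785-fold higher. Against ovary that mean was at least 30180-fold higher. Rats 14 and 7 raised the mean (536 and 547 CPM before scaling), and the lowest library, rat 5, stood at 4.85. The bounds therefore hold for the mean and not for each sperm library. They cover counting error only. PGK2 passed the low-count filter only through sperm, so its call as higher was fixed by that.

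PGK1, its X-linked partner, was lower in rat sperm than in brain in every library. It stood at 404 ± 33.1 CPM in male brain and at 46.9 to 246 (median 223) in sperm, with rats 14 and 7 lowest at 46.9 and 82.4. The fold change of -0.997 ± 0.16 (edgeR, adjusted p = 1.57e-06) missed the fold minimum of 1 on the log2 scale. With the animal as a block it was -1.10 and passed, as it did with RLE factors (-1.31) and in 10 of the 15 fits that left out 1 sperm library. PGK2 made up 2.29 to 91.6% of PGK2 plus PGK1 counts in rat sperm (median 22.0%), above 50% in rats 14, 7 and 3, and the mean log2 ratio was 13.15 higher than in brain. With no PGK2 counts in brain that direction was fixed, so it is given with no test.

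In sheep sperm both phosphoglycerate kinase genes had few counts. PGK2 counts were 55, 165, 51, 0 and 212 in sheep 687, 688, 690, 694 and 699, and PGK1 counts were 0, 924, 61, 254 and 98. The share of PGK2 therefore ran from 0% in sheep 694, where 0 counts allow up to 0.102 CPM before scaling, to 100% in sheep 687. In the 50 sheep brain libraries PGK2 had 1 count in all. The ratio of sperm to brain counts per total counts was 6715 with a 95% counting interval of 1199 to 265754, and PGK2 did not pass the low-count filter in sheep. With no filter the fitted log2 fold change was 12.28 ± 0.55. It is given with no p, since brain held 1 count and the direction was set by sperm alone. PGK1 fell by 2.65 ± 0.41 (edgeR, adjusted p = 7.78e-08), and by 3.43 without sheep 688, with all 5 sperm libraries below every brain library. That SE and p pool the spread with the 50 brain libraries, as for GAPDHS. The exact permutation test of PGK1 levels per animal gave a difference of -4.20 (unadjusted p = 0.00794, the smallest that 5 against 5 can give). The log2 ratio of PGK2 to PGK1 was 13.63 higher in sheep sperm without overlap, 11.74 without sheep 687 and 15.69 without 694. It is given with no test, since PGK2 entered it through sperm alone.

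For pyruvate dehydrogenase E1 alpha, the autosomal PDHA2 was counted in most sperm libraries and the X-linked PDHA1 was lower there than in brain. Rat sperm PDHA2 ran from 0 CPM in 6 libraries (rats 6, 8, 11, 12, 16 and 17) over a median of 0.275 to 56.0 in rat 14, against at most 0.110 in male brain. A total of 8 sperm libraries lay above every brain library. In the 6 libraries at 0, the count allows up to 0.0529 to 0.219 CPM before scaling. PDHA2 did not pass the low-count filter in rats. Fitted with no filter it was 7.91 ± 1.43 higher on the log2 scale, given with no p because brain held almost no counts. PDHA1 fell by 1.96 ± 0.18 (adjusted p = 2.91e-11) from 176 ± 15.3 CPM in male brain to 43.9 ± 18.2 in sperm, and no sperm library reached a brain value. The mean log2 ratio was 5.54 higher in sperm, 4.85 without rat 14, with overlap between the groups. No brain library held 10 PDHA2 counts, so the pair entered through sperm alone and is given with no test.

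In sheep sperm PDHA2 stood at 16.6 CPM (sheep 687), 10.1 (694), 6.96 (699), 1.32 (690) and 0.728 (688), from 290 counts, against 1 count in 50 brain libraries. It had to differ once it passed the filter, which it did through sperm alone. PDHA1 was at 0 counts in sheep 687, 690 and 699, at 10 in 688 and at 3 in 694, against 8.73 ± 3.24 CPM in brain. It fell by 4.85 ± 0.49 (edgeR, adjusted p = 8.86e-13), and by 6.28 without sheep 688. That SE and p again pool the spread with the 50 brain libraries. Per animal, the exact permutation test of PDHA1 levels gave a difference of -5.09 (unadjusted p = 0.00794, the smallest that 5 against 5 can give). PDHA2 made up all E1 alpha counts in 3 of the 5 sperm libraries, 96.8% in sheep 694 and 47.4% in sheep 688. These shares rest on few PDHA2 counts, at 124 (687), 62 (699), 4 (690), 91 (694) and 9 (688). In sheep 690 the 0 counts of PDHA1 allow up to 0.219 CPM before scaling, close to the 0.292 of PDHA2. The mean log2 ratio was 14.58 higher than in brain, 13.73 without sheep 687 and 15.75 without 688, and is a description for the same reason.

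Lactate dehydrogenase differed from the other enzymes in that a somatic gene, LDHA, was also higher in rat sperm. LDHC ran from 0.140 CPM (rat 5) over a median of 6.25 to 728 (rat 14) in sperm, against 0.0369 to 0.401 in male brain. A total of 11 sperm libraries exceeded every brain library and 4 (rats 5, 6, 11 and 12) lay within its range. The fitted log2 fold change of LDHC was 9.41 ± 1.31, and 8.46 without rat 14. Only 6 of 15 male brain libraries held 10 LDHC counts or more against 13 of 15 sperm libraries, so LDHC passed the low-count filter with the help of sperm and the fold change is given with no p. LDHA rose by 1.87 ± 0.12 (adjusted p = 5.52e-15), from 239 ± 26.7 to 822 ± 150 CPM, with every sperm library above every brain library. LDHB fell by 2.42 ± 0.31 (adjusted p = 2.05e-08), from 511 ± 57.7 to 93.7 ± 90.5 CPM, again without overlap, and rat 15 was highest in sperm at 385.

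LDHC never outnumbered LDHA in rat sperm. Its share of the pair ran from 0.0152 to 47.4% (median 0.663%), under 5% in 11 of 15 libraries. The log2 ratio to LDHA was 3.62 higher than in male brain, with overlap, and the ratio to LDHB 8.28 higher, without overlap, both given with no test for the same reason. LDHA and LDHB changed places in both species. LDHA made up 31.9 ± 2.86% of LDHA plus LDHB counts in male rat brain and 89.9 ± 8.02% in sperm, over 50% in all 15 libraries, a log2 difference of 4.66 (permutation p = 2e-05, adjusted 3.5e-05).

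In sheep the share of LDHA was 19.2 ± 9.61% in brain and 73.5 to 95.2% in sperm, over 50% in all 5 libraries, a log2 difference of 5.34 without overlap (exact permutation p = 0.00794, the smallest that 5 against 5 can give, adjusted 0.00855; paired sign flips, adjusted p = 0.0673). LDHB fell by 5.21 ± 0.32 in sheep sperm (edgeR, adjusted p = 1.12e-20), from 343 ± 106 to 8.89 ± 5.11 CPM. That SE and p pool the spread with the brain libraries, which count each region of a sheep as separate. For LDHB levels per animal, the exact permutation test gave a difference of -5.55 (unadjusted p = 0.00794, again the smallest possible). LDHA was 3.36, 218, 138, 169 and 37.0 CPM in sheep 687, 688, 690, 694 and 699 against 15.2 to 237 in brain, with 4 of the 5 inside the brain range. Its fold change of 0.67 ± 0.31 (edgeR, adjusted p = 0.0443) missed the fold minimum, passed it with upper-quartile factors (1.36) and without sheep 687 (1.02), and was called lower, at -1.52, with plain library totals (adjusted p = 0.000701), so its direction rests on the scaling. The per-animal difference was -0.22.

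**Figure D2:**
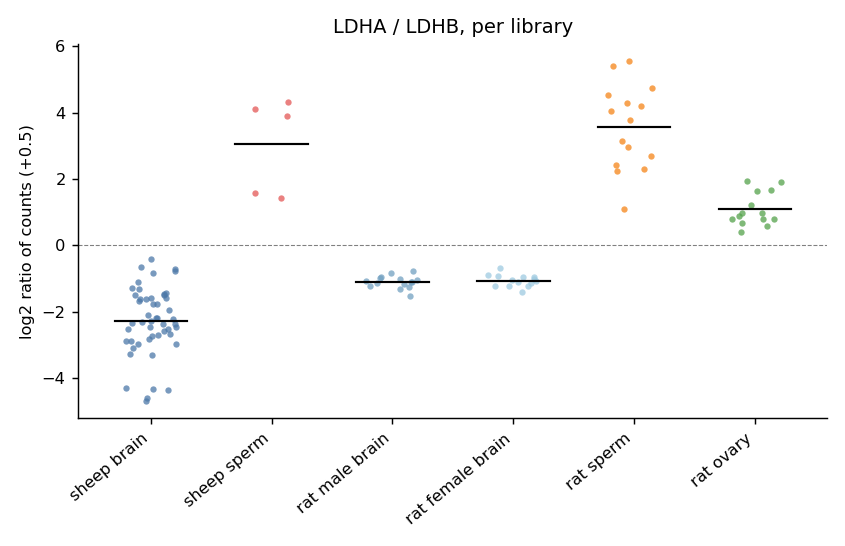
Log2 ratio of LDHA to LDHB counts (0.5 added to both) in every library, by tissue; points are libraries and black lines are group means. Brain libraries of both species lie below 0, and all sperm and ovary libraries lie above it.

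The scaling moved sheep sperm values in particular. Over all genes tested, the median log2 fold change of sheep sperm over brain was -0.42 with TMM factors, -2.84 with plain totals, 0.31 with upper-quartile factors and -0.17 with RLE factors, and calls split into 7239 higher and 8976 lower with TMM, 8907 and 6980 with upper quartiles, and 3249 and 15084 with plain totals. Relative to that median, GAPDHS was 4.15 to 4.59 higher over these 4 scalings, LDHA 1.05 to 1.31 higher, and GAPDH lay between -0.77 and -0.54. In rat sperm the median was -0.03 with TMM and -0.35 with plain totals, and in ovary 0.02 and 0.30.

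**Figure D3:**
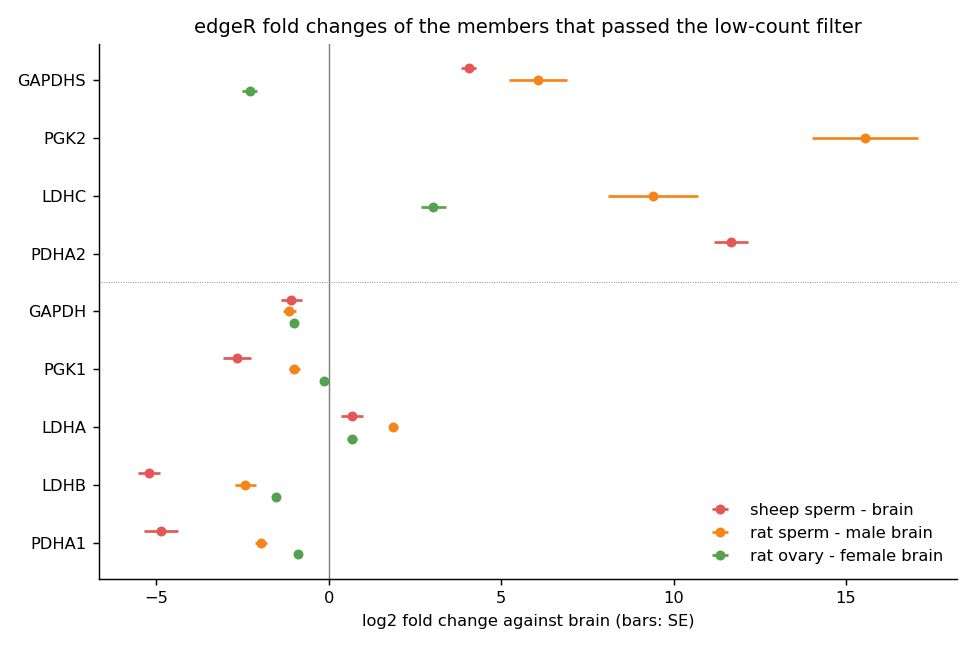
EdgeR log2 fold changes against brain (points) with their SE (bars) for members that passed the low-count filter; colours mark sheep sperm, rat sperm and rat ovary, and the dotted line parts germ-cell isoforms from somatic partners. Germ-cell isoforms lie right of 0 in sperm, GAPDHS lies left of 0 in ovary, and the PGK2 point depends on the prior count since brain had 0 counts.

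Calls were common among all genes, so the counts of members add little to these values. In sheep sperm 6 of the 7 tested members were called, 2 higher and 4 lower, where 74.2% of all genes were called, 33.1% higher and 41.1% lower. In rat sperm 7 of 8 were called, 4 higher and 3 lower, where 59.1% of all genes were, 27.7% higher and 31.5% lower. The higher calls include PDHA2 in sheep and PGK2 and LDHC in rats. These passed the filter with the help of sperm, so they are no open tests.

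The germ-cell share of each pair varied between rat sperm libraries together with the spermatid genes. Over the 15 libraries the log2 ratio of PGK2 to PGK1 had a Pearson r of 0.97 and a Spearman rho of 0.98 with the log2 summed spermatid level (permutation p = 1e-05 for both, the smallest given by 100000 resamples; adjusted over 4 ratios, 4e-05 and 2e-05). For GAPDHS to GAPDH r was 0.93 and rho 0.94 (p = 2e-05 and 1e-05, adjusted 4e-05 and 2e-05). For LDHC to LDHA they were 0.87 and 0.85 (p = 4e-05 and 0.00024, adjusted 5.33e-05 and 0.00032), and for PDHA2 to PDHA1 0.80 and 0.75 (p = 0.00033 and 0.00162, adjusted 0.00033 and 0.00162). All 4 relations were positive. Without rats 14 and 7, the farthest from the median, r was 0.95 for PGK2, 0.88 for GAPDHS, 0.77 for LDHC and 0.61 for PDHA2. The spermatid level moved with these ratios, and its part in the differences between sperm and brain was not tested.

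In sheep sperm some members followed the marker lists and others did not. Sheep 699 and 687 had the highest spermatid sums (8011 and 7782 CPM) and the highest GAPDHS, and sheep 688, with the lowest (251), had the lowest GAPDHS and PDHA2. PGK2 did not follow that order, with 13.3 CPM in sheep 688 and 7.38 in 687. Nor did PDHA2 in the other sheep, at 10.1 CPM in 694 (spermatid sum 872) and 1.32 in 690 (2902). Sheep 688 also had the highest GAPDH, PGK1, LDHA and LDHB of the 5 and the highest neutrophil and squamous sums. The part of those cells in the somatic values of sheep sperm was not tested.

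**Figure D4:**
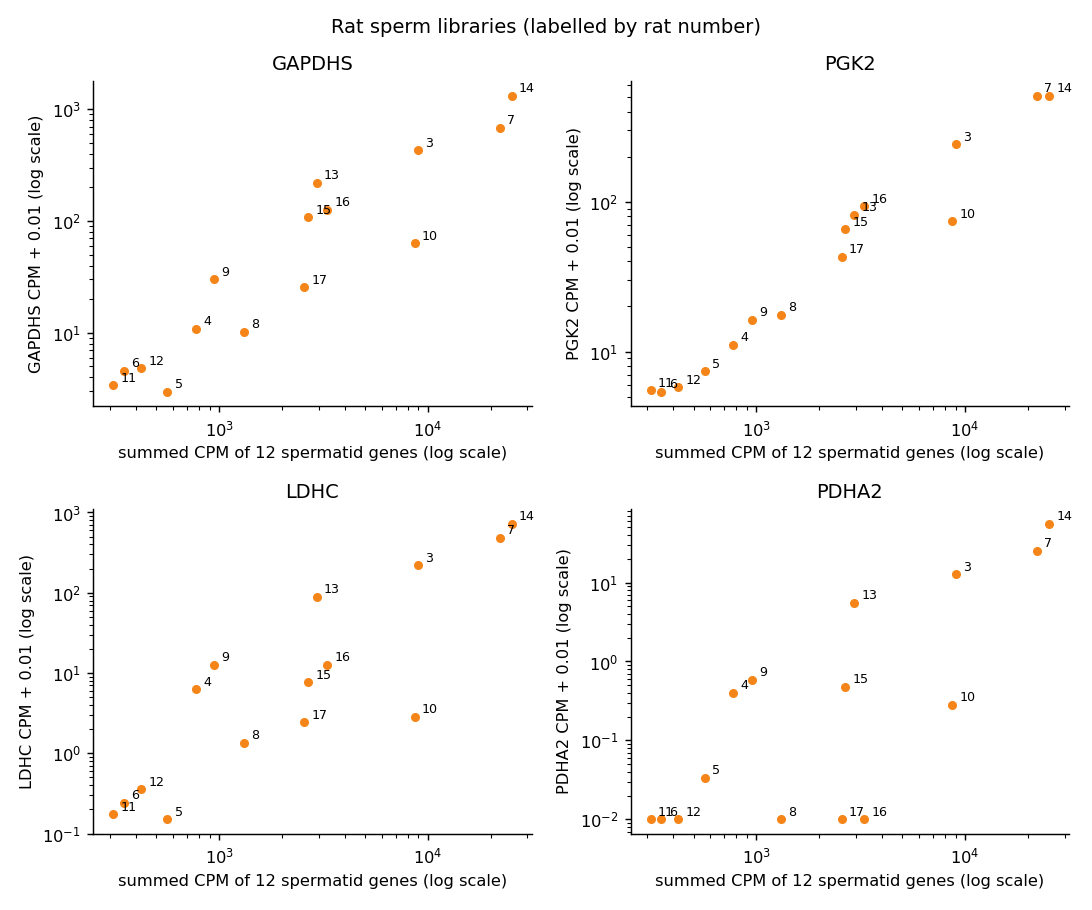
TMM-scaled CPM (plus 0.01, log scale) of the 4 germ-cell isoforms against the summed CPM of 12 spermatid genes (log scale) in the 15 rat sperm libraries; each point is a library with its rat number. Rats 14, 7 and 3 lie at the upper right in every panel, and 6 libraries lie at the floor for PDHA2.

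The genes most like each isoform over the 15 rat sperm libraries, by the Pearson correlation of log2(CPM + 1) among 9480 genes with a mean of at least 10 CPM, are given as a description. All points share library, depth and the germ-cell content above. GAPDHS was closest to NT5C1B (r = 0.997), IRGC (0.996) and TCP11 (0.995), and PGK2 to CCDC136 (0.997), SPEM2 (0.996) and KLHL10 (0.995). LDHC was closest to FABP9 (0.995), HMGB4 (0.994) and PHF7 (0.992), and PDHA2 to 1700012B07RKL, EFCAB3 and CACNA2D3 (each 0.998). KLHL10, HMGB4 and TCP11 are themselves known as genes of male germ cells. Between isoforms, GAPDHS and PGK2 had an r of 0.98, and PGK2 and PDHA2 0.82. Against its own partner, PGK2 had an r of -0.73 with PGK1, and LDHC one of 0.08 with LDHA.

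In the ovary, LDHC was higher and GAPDHS lower than in female brain. LDHC was at 0.247 to 3.91 CPM (17 to 253 counts; median 0.833) against 0.0314 to 0.427 in female brain, and 13 of the 14 ovary libraries lay above every brain library. Rats 29 and 20 were highest, at 3.91 and 3.03 CPM. The fitted log2 fold change of LDHC was 3.03 ± 0.36, given with no p because only 4 of 14 female brain libraries held 10 counts or more and LDHC passed the low-count filter through ovary. GAPDHS fell by 2.30 ± 0.21 (adjusted p = 8.57e-12), from 2.69 ± 0.68 to 0.54 ± 0.24 CPM, without overlap. PGK2 had no count in ovary, and PDHA2 had 3 counts in 14 libraries; neither was tested. A list of 6 oocyte genes, such as GDF9 and ZP3, summed to 24.7 to 121.7 CPM in ovary and 0.321 to 1.16 in female brain; its part in the LDHC value was not tested.

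Of the somatic partners in ovary, LDHB fell by 1.54 ± 0.07 (edgeR, adjusted p = 2.26e-19), from 527 ± 54.1 to 180 ± 25.1 CPM. GAPDH fell by 1.00 ± 0.11 (adjusted p = 6.90e-10), just past the fold minimum; the call was lost with upper-quartile factors (-0.92), plain totals (-0.73) and no filter (-0.96). LDHA (0.67), PDHA1 (-0.90) and PGK1 (-0.13) were not called, and the last was 0.14 with plain totals. LDHA made up 67.6 ± 7.20% of LDHA plus LDHB counts against 32.5 ± 2.74% in female brain, a log2 difference of 2.15 without overlap. GAPDHS to GAPDH differed by -1.33 with overlap (permutation p = 2e-05 for both ratios, adjusted 3.5e-05). LDHC to LDHA was 2.07 higher with overlap and LDHC to LDHB 4.22 higher without it, as descriptions. A total of 4 of the 7 tested members were called, 1 higher and 3 lower, where 56.9% of all genes were called, 27.7% higher and 29.2% lower. The 1 higher call was LDHC, which passed the filter through ovary and is no open test.

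Set against sperm directly, the ovary held less of the germ-cell isoforms by -8.70 ± 1.03 for GAPDHS (edgeR, adjusted p = 1.12e-08) and -6.63 ± 1.23 for LDHC (2.12e-05). All 15 sperm libraries lay above every ovary in GAPDHS. In LDHC 8 did, 4 (rats 8, 10, 12 and 17) lay within the ovary range and 3 (rats 5, 6 and 11) lay below it. PDHA2, with 3 counts in ovary and 5749 in sperm, had a ratio of sperm to ovary counts per total counts of 2014 (interval 689 to 9771, counting error only). Rat 14 held 3433 of the 5749, and without it the ratio was 881 (301 to 4277). LDHA was lower in ovary by -1.05 ± 0.16, a call lost with plain totals (-0.71), while PDHA1 was 1.19 ± 0.19 and PGK1 1.03 ± 0.16 higher. GAPDH (0.24) and LDHB (0.98) were not called, and LDHB passed with plain totals (1.30). In all 6 of 8 members were called, 2 higher and 4 lower, where 50.8% of all genes were called, 27.9% higher and 22.9% lower. The lower calls include PGK2, which had no count in ovary and passed the filter through sperm alone.

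Within the sheep brain, LDHA differed between regions. It was 172 ± 46.5 CPM in the basal ganglia (107 to 237 over 5 sheep) and 18.2 ± 2.93 in the cerebellum (15.2 to 22.4), and the cerebellum lay below every other region without overlap. The order from the top was basal ganglia, frontal cortex, motor cortex, prefrontal cortex, visual cortex, entorhinal cortex, hippocampus, posterior parietal cortex, pons and cerebellum, with neighbours overlapping except pons and cerebellum. Against the mean of the other 9 regions LDHA was 1.44 ± 0.20 higher in basal ganglia (edgeR, adjusted p = 1.62e-07), lower in cerebellum by -2.2 ± 0.28 (4.32e-09), 0.76 ± 0.21 higher in frontal cortex (0.0196) and lower in pons by -0.77 ± 0.24 (0.00821). The frontal call was lost without sheep 690 (0.65) or 694 (0.69), and that of the pons without 694 (-0.66).

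LDHB was more even, from 238 ± 65.1 CPM in pons to 432 ± 111 in motor cortex, each neighbour in the order overlapping. It was lower in hippocampus (-0.52 ± 0.16, edgeR, adjusted p = 0.0260) and pons (-0.51 ± 0.16, 0.00658), and the hippocampal call was lost without sheep 688, 690 or 694 (-0.43, -0.54 and -0.54). The share of LDHA in the pair was 37.2 ± 5.07% in basal ganglia and 4.4 ± 0.504% in cerebellum, with log2 ratios of -0.76 ± 0.32 and -4.45 ± 0.18. The cerebellum lay below every other region in this ratio without overlap. The basal ganglia, with a lowest ratio of -1.28, did not overlap with the next region in the order, the entorhinal cortex. They did overlap with frontal cortex (highest -1.11) and motor cortex (highest -0.83). Over the 50 brain libraries LDHA and LDHB had an r of 0.09. LDHA was closest to PTPN5 (r = 0.915), a phosphatase of striatal neurons, KCNG1 (0.913) and ACTN2 (0.907), and LDHB to NDUFS3 (0.915) and ATP5F1B (0.904), subunits of mitochondrial respiratory enzymes, and TTC19 (0.900). These are descriptions over 8817 genes, and the 50 points share sheep and region.

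**Figure D5:**
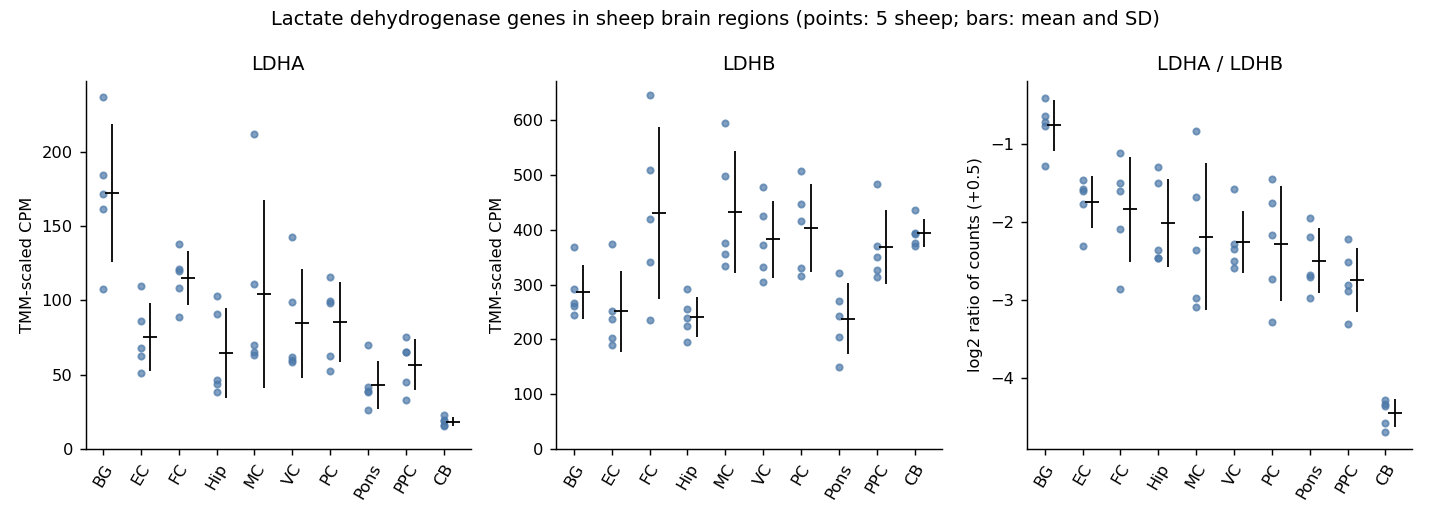
TMM-scaled CPM of LDHA and of LDHB, and the log2 ratio of their counts (0.5 added), in the 10 sheep brain regions; points are the 5 sheep, with the mean and SD beside them, and regions are ordered by the ratio. BG is basal ganglia, EC entorhinal, FC frontal, MC motor, VC visual, PC prefrontal and PPC posterior parietal cortex, Hip hippocampus and CB cerebellum; BG lies at the top of LDHA and CB at the bottom.

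The sperm form GAPDHS was also counted in every sheep brain library. It was 4.34 ± 1.63 CPM in pons and 4.30 ± 1.11 in cerebellum, and 2.04 ± 0.489 to 2.99 ± 0.444 elsewhere, with overlap between neighbours. Both rises passed the test, at 0.78 ± 0.14 in pons (edgeR, adjusted p = 1.65e-05) and 0.70 ± 0.14 in cerebellum (5.41e-05). PGK2 and PDHA2 had 1 count each in all 50 libraries, so they were not tested. GAPDH (837 to 1235 CPM), PGK1 (133 to 223) and PDHA1 (7.03 to 11.7), given as means of regions, had no called region.

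Of 60 tests of a member in a region, 8 passed, 4 higher and 4 lower. With the sheep as a block 13 passed, adding GAPDHS and PGK1 in frontal cortex, PGK1 in hippocampus, LDHB in motor cortex and GAPDHS in posterior parietal cortex, and without sheep 694 it was 5. LDHB gained a call in basal ganglia (-0.42) and frontal cortex (0.53) without sheep 699 and in entorhinal cortex (-0.59) without 688. PGK1 gained one in frontal cortex without sheep 699 (0.52) and LDHA in motor cortex without 687 (0.80). The share of all genes called was 27.6% in basal ganglia, where 1 of 6 members was called, 60.7% in cerebellum (2), 48.3% in pons (3), 11.0% in hippocampus (1) and 7.85% in frontal cortex (1). It was 3.36% in entorhinal, 3.55% in motor, 6.31% in prefrontal, 10.4% in posterior parietal and 5.65% in visual cortex, where no member was called by edgeR and 2, 4, 1, 1 and 1 had an unadjusted p under 0.05.

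Between male and female rat brains no member passed the test. Of the 6 members tested, 0 were called by edgeR at an adjusted p under 0.05 and 0 by DESeq2, and 1 had an unadjusted p under 0.05, where 0.18% of all genes were called. That gene was GAPDHS, at 0.33 ± 0.14 higher in males (unadjusted p = 0.0303, adjusted 0.434), from 2.69 to 3.35 CPM. The other 5 differences lay between -0.08 and -0.03.

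The difference of sperm from brain was set against itself between species, where kit and species cannot be told apart, and where the rat brain was whole and the 10 sheep regions were summed. LDHB (-2.84 ± 0.59, edgeR, adjusted p = 6.65e-05), PDHA1 (-2.99 ± 0.53, 5.96e-06), LDHA (-1.34 ± 0.48, 0.0143) and PGK1 (-1.66 ± 0.60, 0.0144) were lower in sheep than in rat by this measure. Over all genes the median was -0.69 and 62.3% were called, 3619 higher and 5827 lower; with RLE factors the median was 0.22 and the split 5044 and 3978. In all 4 of 8 tested members were called, and LDHA and PGK1 lost the call with RLE factors (-0.49 and -0.87), and LDHA also without sheep 687 (-0.93) or 699 (-1.08). GAPDHS, at -2.15 ± 1.31, was not called (edgeR, adjusted p = 0.149). PGK2 (-3.30 ± 5.51) and PDHA2 (4.42 ± 2.01) were not called either. Both had few or no counts in brain and entered through sperm alone, so no p is given for them. The PDHA2 call changed with the scaling, at 5.36 with RLE factors and 4.48 with plain totals.

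The rest of the pathway was read from a list of 51 genes of glucose uptake, glycolysis, lactate handling and pyruvate dehydrogenase. In sheep sperm 49 were tested, of which 11 rose and 26 fell, with a median log2 fold change of -1.18 against -0.42 over all genes, of which 33.1% were called higher and 41.1% lower. Within it, 10 of 12 pyruvate dehydrogenase genes fell (DLAT, DLD, MPC2, PDHB, PDHX, PDK2, PDK3, PDK4, PDP1 and PDP2), with a median of -3.68. Of the pathway genes averaging 10 CPM or more where higher, HK2, a hexokinase, rose most (8.25 ± 0.23, 97.7 ± 64.5 against 0.334 ± 0.183 CPM), then PGAM2, the muscle phosphoglycerate mutase (5.85 ± 0.26). PGAM2 ran from 2.10 to 269 CPM over the 5 sheep sperm libraries, against 0.915 to 3.66 in sheep brain. ENO2, the neuronal enolase, fell most (-10.35 ± 0.56), then ALDOC, the brain aldolase (-8.39 ± 0.29). For these and the genes named by the same rule below, the adjusted p by edgeR was 3.62e-05 or less.

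In rat sperm 7 of 47 tested pathway genes rose and 11 fell, with a median of -0.01 against -0.03 over all genes, of which 27.7% were called higher and 31.5% lower. PGAM2 (4.52 ± 0.89, from 3.02 ± 0.714 to 63.8 ± 131 CPM) and HK2 (3.26 ± 0.24, from 4.17 ± 1.03 to 38.5 ± 18.0 CPM) rose most. PGAM2 ran from 0 to 438 CPM over the sperm libraries, against 2.03 to 4.59 in male brain. ENO2 (-9.09 ± 0.52) and PFKP, a phosphofructokinase (-3.24 ± 0.31), fell most. In this species 1 of 12 pyruvate dehydrogenase genes rose (PDK2, a kinase that switches the complex off) and 3 fell (DLAT, PDK4 and PDP1).

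In ovary 5 of 47 rose and 13 fell against female brain, with a median of -0.49 against 0.02 over all genes, of which 27.7% were called higher and 29.2% lower. SLC2A4, the insulin-regulated glucose transporter (3.19 ± 0.43), and HK2 (1.80 ± 0.20) rose most, and ENO2 (-5.57 ± 0.25) and ALDOC (-4.73 ± 0.25) fell most. Against sperm, 10 of 46 were higher and 13 lower in ovary (27.9% and 22.9% of all genes), led by SLC2A4 (5.07 ± 0.56) and ENO2 (3.65 ± 0.54) upward and PGAM2 (-5.23 ± 0.99) and PFKFB4 (-3.94 ± 0.15) downward. Between male and female brains 0 of 47 were called by edgeR and 0 by DESeq2, and 3 had an unadjusted p under 0.05. Across sheep regions the cerebellum (14 higher, 11 lower of 49) and pons (12 higher, 15 lower) had the most calls, as they had among all genes.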

How the data were processed

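The authors deposited raw read counts of genes, with a column for each library and no scaling. TRIzol (sheep) or a Zymo kit (rats) was used for extraction, per the labels, and RNA was made into stranded mRNA libraries (Kapa or Watchmaker kit). Per the series' design text, reads of 150 bases were trimmed (Trimmomatic 0.39), aligned with STAR 2.7.5a to ARS-UI_Ramb_v3.0 or GRCr8, and counted with Rsubread 2.20.0.

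The test was edgeR 4.0.16 under R 4.3.3 (quasi-likelihood, TMM factors, filterByExpr by group, prior count 0.125, Benjamini-Hochberg over all genes tested). Calls needed an adjusted p under 0.05 and, except for regions and sex, a log2 fold change of 1 or more in size. All sheep libraries shared 1 fit for sperm against brain, with sperm set against the mean of 10 regions. SE is the absolute log2 fold change over the square root of F. DESeq2 1.42.0 was an alternative. On simulated counts the edgeR step was tested before use. That simulation changed only a small set of genes, so it cannot test the scaling between sperm and brain, where most genes differed.

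Ratios of a pair used counts plus 0.5, with permutation tests adjusted over 14 pairs, run where the first gene had at least 10 counts in at least 50% of a group's libraries. Tests of pairs that met it only through the group where the first gene was high are not reported. That limit, the permutation of single levels and the omission of single rat libraries were chosen after seeing the data. Members and lists were chosen with earlier results of these data known. All 9 members are named. Other pathway genes are, in each direction, the 2 called ones that changed most among those with a mean of 10 CPM or more in the higher group, and likeness gives the 3 highest correlations.

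Same-numbered samples are from the same animal, so numbers pair the samples. Deviations of same-numbered samples correlated at 0.01 to 0.13 in sheep, -0.07 to 0.29 in rat males and -0.25 to 0.12 in females. In rats each library of a group is 1 animal. The sheep edgeR p-values treat the 10 regions of a sheep as separate libraries and so do not measure the spread between sheep alone.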

Additional observations from a re-analysis of the deposited data

Results flagged for a closer look

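A total of 67 tests looked for a library far from the other 4 of its sheep group, and chance alone flags about 1 in 20. GAPDHS in the basal ganglia of sheep 694 stood at 2.33 CPM, below 2.77 to 2.86 in the other 4 sheep. PGK1 in the entorhinal cortex of sheep 688 stood at 207.5 CPM, above 102.5 to 130.4 in the others.

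The change from brain to sperm differed between sheep and rat in the edgeR fit for LDHA (-1.34), LDHB (-2.84), PDHA1 (-2.99) and PGK1 (-1.66), given as log2 sheep minus rat. Over all genes the median of this measure was -0.69 and 62.3% were called. LDHA and PGK1 lost the call with RLE factors (-0.49 and -0.87). Extraction and library kits differed with the species, and the neutrophil list summed to 13838 to 158857 CPM in sheep sperm and 4.06 to 58.5 in rat sperm; their part in these differences cannot be told apart.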

How the results depend on the processing

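With no low-count filter 22067 genes were called in rat sperm (12111 with it) and 18799 in ovary (11832), where more genes were tested. DESeq2 called 157 genes between male and female brains and edgeR 37; the cause was not tested. Members called over the 10 sheep regions numbered 8, 13 with the replicate block, and 5 to 11 when each sheep was left out. With the replicate block the sheep log2 ratio differences of 4.96 (GAPDHS to GAPDH), 13.63 (PGK2 to PGK1), 5.34 (LDHA to LDHB) and 14.58 (PDHA2 to PDHA1) stayed the same but those of GAPDHS and LDHA missed the threshold (adjusted p = 0.12 and 0.0673), since 5 pairs cannot give a p below 0.0625. Leaving out each sheep moved the first from 3.75 to 6.38, with an adjusted p of 0.0952 without sheep 687, 690, 694 or 699, where 4 against 4 cannot go below 0.0286. Apart from these and the calls named beside each result, the block changed no other member's call in the tissue comparisons except PGK1 in rat sperm (-1.10). No value called in the reported fit changed sign under an alternative, but LDHA in sheep sperm, not called there (0.67), was called at 1.36 with upper-quartile factors and at -1.52 with plain totals. Low counts limit PDHA2 in rat sperm, at 0 in 6 libraries, and PGK1, PDHA1 and PDHA2 in sheep sperm.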
